A study of Homo sapiens with 10 samples.

Results

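The genes described here encode 6 cathepsins, the peptidases of lysosomes (CTSA, CTSB, CTSD, CTSF, CTSL and CTSZ), the lysosomal membrane proteins LAMP1, LAMP2 and NPC1, and the glycosidase subunit HEXA. They were chosen as a list by gene symbol, with earlier results of these data known. All 10 were found among the 17687 named genes of the array, each with 1 probe set (a group of probes summarised to 1 value per transcript). Lysosomes are acidic compartments that break down proteins, lipids and sugars taken up by endocytosis or delivered by autophagy. Cathepsins are made as inactive precursors and become active at acidic pH, while LAMP proteins are the most abundant proteins of the lysosomal membrane. Transcription of many of these genes is driven by TFEB and its relatives, which bind an E-box in their promoters.

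Expression was read from 10 arrays covering whole transcripts. The cells were SK-N-FI or SK-N-AS, both human neuroblastoma cell lines with no engineered change named in the labels. For SK-N-FI there were 2 arrays of control cells and 2 of treated cells. For SK-N-AS there were 3 of each, and their numbers in the titles are 25, 26 and 27 for controls and 28, 29 and 30 for treated cells. All were grown in IMDM medium with serum. Treated cells had received 30 µM of BG-P1600-TAT, a PEGylated agent for which the series title names the norepinephrine transporter and thyrointegrin αvβ3 as targets, for 48 h, and control cells had received PBS. The titles of the treated SK-N-AS samples read BG-P-TAT, which was taken to be the same agent. The series design calls the SK-N-FI RNA biological replicates and mentions more of them than the 2 per group used here, and it says nothing of the kind for SK-N-AS. There, p-values rest on a spread between arrays that could be technical only. The number of arrays limits the precision.

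Values are log2 signals per probe set as deposited, and a gene is called above background on an array where it exceeded the 95th percentile of that array's 612 negative control probe sets. Thresholds were 7.44 to 8.26 for SK-N-FI arrays and 6.75 to 7.23 for those of SK-N-AS. Medians over all probe sets of an array were 7.02 to 7.07 for SK-N-FI against 6.02 to 6.09 for SK-N-AS, while the medians of the negative controls were 4.02 to 4.05 and 3.86 to 4.04. Whether this reflects processing or the signal of the cells was not tested. Because of this difference, lines were compared after quantile normalization of all 10 arrays together (called the quantile scale), and each such difference is also given on the deposited scale. The quantile scale reversed the order of the thresholds, to 6.73 to 7.38 for SK-N-FI and 7.23 to 7.96 for SK-N-AS. Background was judged on the deposited scale throughout. Run or handling, where these differed by line, and the line itself cannot be told apart. Among markers of the lines, 6 of 7 noradrenergic genes were above background on every SK-N-FI control array (mean log2 signal of the list 11.83 to 11.87) and 3 of 7 on every SK-N-AS control array (6.95 to 7.06). DBH, PHOX2A and SLC6A2 exceeded background on all SK-N-FI arrays and on no SK-N-AS array.

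Of the 10 genes, 8 were above background on all 10 arrays. CTSF, a cysteine cathepsin, and CTSZ, a cathepsin that acts as a carboxypeptidase, were above it on none. CTSF lay at 6.19 to 6.77 on SK-N-FI and 4.54 to 5.53 on SK-N-AS arrays, and CTSZ at 4.77 to 5.39 and 4.07 to 4.86. For these genes the signal gives no more than an upper bound, and no fold is given between the lines.

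**Figure D1:**
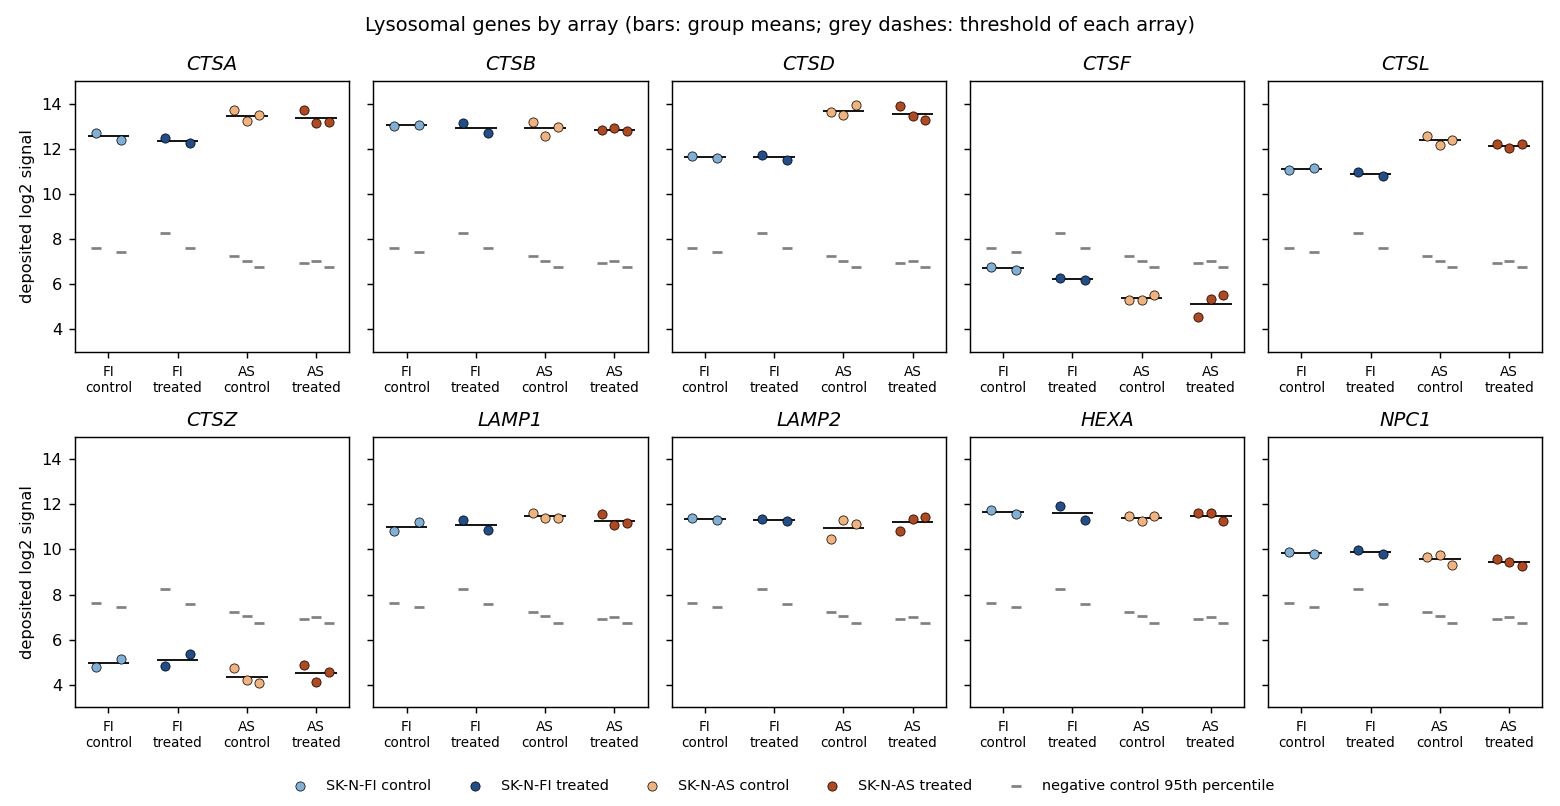
Deposited log2 signal of each of the 10 genes (vertical axis) in each array, grouped by line and treatment, with group means as bars and each array's negative control threshold as grey dashes. CTSD, CTSL and CTSA are higher in every SK-N-AS array than in any SK-N-FI array, CTSF and CTSZ lie under the threshold throughout, and control and treated groups of a line lie close together. Array medians differ between the lines.

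The question of how the lines differ was asked first in the control arrays. CTSD, CTSL and CTSA were higher in SK-N-AS than in SK-N-FI on both scales, by 9.91-fold, 6.45-fold and 4.17-fold on the quantile scale and by 4.13-fold, 2.40-fold and 1.88-fold on the deposited scale. The other 5 genes above background, CTSB, LAMP1, LAMP2, HEXA and NPC1, were higher in SK-N-AS on the quantile scale and did not pass the test on the deposited scale. In bulk RNA, fewer cells that express a gene and less RNA per cell cannot be told apart.

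CTSD encodes cathepsin D, the main aspartic protease of lysosomes. Its log2 signal was 11.69 and 11.60 in SK-N-FI controls and 11.74 and 11.52 in treated SK-N-FI cells. For SK-N-AS the controls 25, 26 and 27 read 13.64, 13.50 and 13.94, and the treated arrays 28, 29 and 30 read 13.91, 13.43 and 13.26. Every SK-N-AS array lay above every SK-N-FI array, with no overlap. On the quantile scale the lines differed by 3.31 ± 0.23 (log2, SE; 95% interval 2.81 to 3.80) in control arrays (limma adjusted p = 3.42e-07). On the deposited scale the difference was 2.05 ± 0.25 (adjusted p = 1.62e-05).

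CTSL encodes cathepsin L, a cysteine endopeptidase that also processes proteins outside lysosomes. It measured 11.04 and 11.17 in SK-N-FI controls and 10.98 and 10.79 in treated SK-N-FI cells. The SK-N-AS values were 12.55, 12.15 and 12.40 in controls and 12.19, 12.01 and 12.22 in treated cells, again without overlap between the lines. The difference in control arrays was 2.69 ± 0.20 (SE) on the quantile scale and 1.26 ± 0.21 on the deposited scale (limma adjusted p = 8.43e-07 and 0.000252).

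CTSA encodes protective protein/cathepsin A, a carboxypeptidase that stabilises lysosomal beta-galactosidase and neuraminidase. SK-N-FI gave 12.72 and 12.40 in controls and 12.48 and 12.24 in treated cells. SK-N-AS gave 13.72, 13.22 and 13.47 in controls and 13.72, 13.13 and 13.18 in treated cells, so that its lowest array was above the highest of SK-N-FI. The difference in control arrays was 2.06 ± 0.24 (SE) on the quantile scale and 0.91 ± 0.26 on the deposited scale (limma adjusted p = 2.63e-05 and 0.00819).

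CTSB encodes cathepsin B, a cysteine protease that cuts both within proteins and at their ends. Its deposited signals overlapped between the lines, at 13.03, 13.07, 13.16 and 12.70 for SK-N-FI (2 controls, then 2 treated) and at 13.19, 12.57, 12.94, 12.82, 12.90 and 12.80 in SK-N-AS (arrays 25 to 30). CTSB was 0.98 ± 0.24 (SE) higher in SK-N-AS control arrays on the quantile scale (limma adjusted p = 0.00511), and the difference was -0.15 ± 0.24 on the deposited scale (adjusted p = 0.623). Its direction thus turned with the scale.

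Of the lysosomal membrane proteins, LAMP1 carries heavily glycosylated lumenal domains and coats the inner face of the membrane. It measured 10.83 and 11.20 in SK-N-FI controls, 11.31 and 10.84 in treated SK-N-FI cells, 11.63, 11.39 and 11.37 in SK-N-AS controls and 11.56, 11.10 and 11.17 in treated SK-N-AS cells. Control arrays of the lines did not overlap, and treated arrays did. The difference in control arrays was 1.98 ± 0.24 (SE) on the quantile scale (limma adjusted p = 3.93e-05) and 0.45 ± 0.25 on the deposited scale (adjusted p = 0.134).

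LAMP2 is related to LAMP1, and one of its isoforms is the receptor of chaperone-mediated autophagy. The probe set is annotated to 3 transcript accessions, so isoforms were not told apart. LAMP2 measured 11.41 and 11.29 in SK-N-FI controls and 11.37 and 11.25 in treated cells, and 10.44, 11.32 and 11.14 in SK-N-AS controls and 10.84, 11.36 and 11.43 in treated cells. Arrays 25 and 28 were the lowest of the 10. The difference in control arrays was 1.16 ± 0.28 (SE) on the quantile scale (limma adjusted p = 0.00466) and turned to -0.38 ± 0.29 on the deposited scale (adjusted p = 0.273).

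NPC1 moves cholesterol out of the lysosome lumen, and HEXA is the alpha subunit of the enzyme that trims ganglioside GM2. NPC1 measured 9.88 and 9.81 in SK-N-FI controls, 9.97 and 9.82 in treated SK-N-FI cells, 9.67, 9.77 and 9.32 in SK-N-AS controls and 9.59, 9.43 and 9.26 in treated SK-N-AS cells. On the deposited scale every SK-N-AS array was below every SK-N-FI array, by -0.25 ± 0.22 (SE) in controls, which did not pass the test (limma adjusted p = 0.347). On the quantile scale NPC1 was higher in SK-N-AS controls by 1.42 ± 0.23 (adjusted p = 0.000305). HEXA measured 11.74 and 11.58 in SK-N-FI controls, 11.92 and 11.29 in treated SK-N-FI cells, 11.47, 11.24 and 11.49 in SK-N-AS controls and 11.62, 11.61 and 11.24 in treated SK-N-AS cells. Its difference in control arrays was 1.21 ± 0.24 on the quantile scale (limma adjusted p = 0.00161) and -0.26 ± 0.25 on the deposited scale (adjusted p = 0.394), and in treated arrays the lines overlapped on the deposited scale.

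In count, 8 of the 10 genes were called with SK-N-AS controls higher and 0 with SK-N-FI controls higher on the quantile scale. As the list was chosen with earlier results known, the shares that follow describe it and are no test. Over all 21448 probe sets tested, 46.7% were called, of which the share with SK-N-AS higher was 23.9% and with SK-N-FI higher 22.8%. Among the 5834 probe sets above background throughout, 54.5% were called, 31.9% with SK-N-AS and 22.7% with SK-N-FI as the higher line. The median difference was 1.31 for the 10 genes and 1.70 for the 8 above background, against 0.03 over all probe sets and 0.15 over those above background throughout. On the deposited scale 3 of 10 genes were called higher in SK-N-AS (CTSA, CTSD and CTSL) and 1 higher in SK-N-FI (CTSF, under the background threshold), where SK-N-AS was the higher line for 11.5% of all probe sets and SK-N-FI for 47.8%. The median of the 10 genes was then -0.20, against -0.61 over all probe sets and -1.31 over those above background throughout.

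The rank of each gene's line difference among the 5834 probe sets above background moved little with the scale. In control arrays CTSD exceeded 98.8% of them on either scale, CTSL 97.1% on the quantile and 96.1% on the deposited scale, CTSA 94.1% and 94.4%, and LAMP1 93.4% and 91.0%. NPC1 exceeded 85.8% and 79.9%, HEXA 81.7% and 79.9%, LAMP2 80.8% and 77.2%, and CTSB 76.6% and 82.0%. All 8 genes thus stood in the upper part of the distribution on both scales. The median over the 5834 probe sets was 0.15 on the quantile and -1.31 on the deposited scale. A shift shared by all probe sets leaves ranks unchanged, whereas the gap between the lines grew with the signal. Both scales rest on the same signals, so the ranks are no separate check of the direction.

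The line difference was also taken between the treated arrays, which are other arrays than the controls but share the normalization and the estimate of the spread with them. Again 8 of 10 genes were called higher in SK-N-AS on the quantile scale, where 45.5% of all probe sets were called, 23.4% with SK-N-AS and 22.2% with SK-N-FI higher. Among probe sets above background throughout, 53.2% were called, 30.9% with SK-N-AS and 22.3% with SK-N-FI higher. The median of the 10 genes was 1.37, against 0.02 over all probe sets. CTSD differed by 3.16 ± 0.23 (SE), CTSL by 2.74 ± 0.20 and CTSA by 2.20 ± 0.24 (limma adjusted p = 5.16e-07, 7.56e-07 and 1.59e-05). LAMP1 differed by 1.73, LAMP2 by 1.41, HEXA by 1.33, NPC1 by 1.19 and CTSB by 1.10, each with an adjusted p of 0.00252 or less. On the deposited scale CTSD, CTSL and CTSA were the 3 called higher in SK-N-AS, at 1.90, 1.26 and 0.99, and CTSF the 1 called higher in SK-N-FI, where SK-N-AS was the higher line for 11.2% of all probe sets and SK-N-FI for 47.8%. As deposited, LAMP1 differed by 0.20, LAMP2 by -0.10, HEXA by -0.11, NPC1 by -0.47 and CTSB by -0.09, and none of these passed the test (limma adjusted p of 0.51, 0.78, 0.712, 0.0898 and 0.772).

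**Figure D2:**
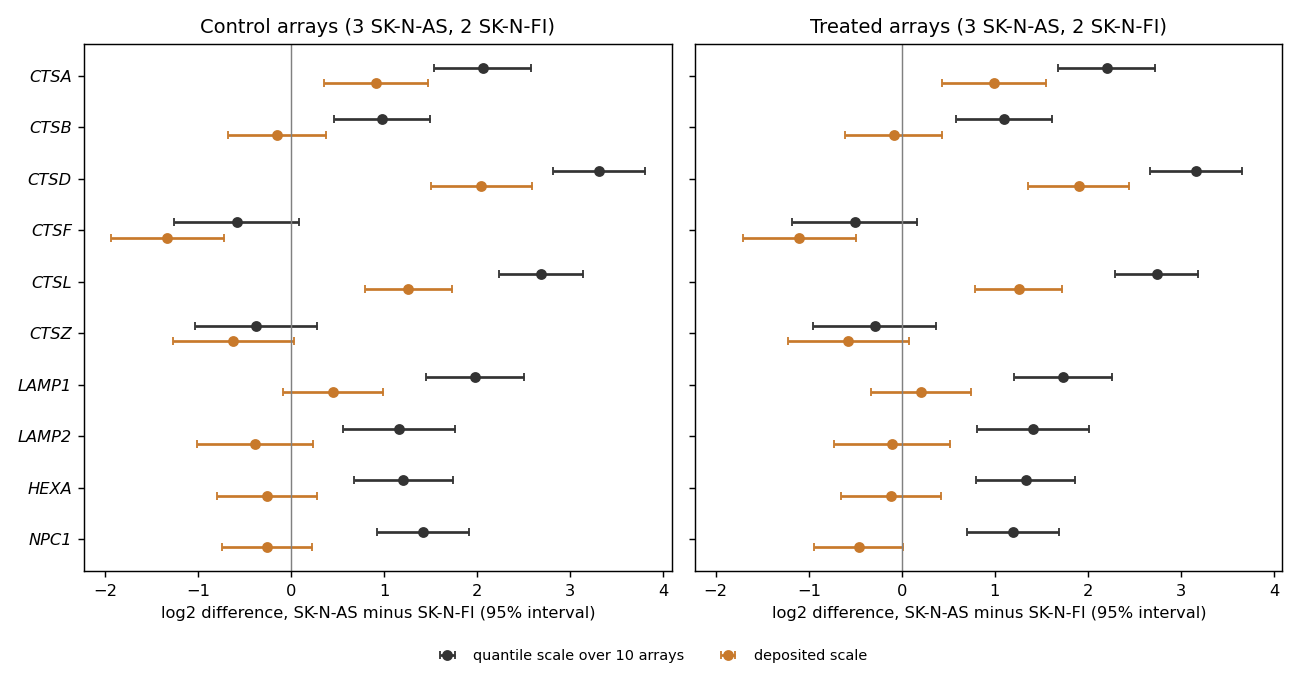
Log2 difference between the lines, SK-N-AS minus SK-N-FI (horizontal axis), with 95% intervals from limma, for control arrays (left) and treated arrays (right), after quantile normalization of all arrays (dark) and as deposited (orange). CTSD, CTSL and CTSA lie above 0 with their intervals on both scales, whereas CTSB, LAMP2, HEXA and NPC1 change sign between the scales.

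Promoter sequence is shown for the 3 genes that were higher in SK-N-AS on both scales and for LAMP1. Of the genes described with a promoter entry, LAMP1 held the most copies of CACGTG, an E-box. Each run gives the 250 bases before the RefSeq transcription start on GRCh38.p14, 5′ to 3′ on the strand of the gene, with CACGTG in capitals. CTSD lies on the minus strand at chr11:1763928-1764177, CTSA on the plus strand at chr20:45891085-45891334, LAMP1 on the plus strand at chr13:113296989-113297238 and CTSL on the plus strand at chr9:87725869-87726118.
CTSD: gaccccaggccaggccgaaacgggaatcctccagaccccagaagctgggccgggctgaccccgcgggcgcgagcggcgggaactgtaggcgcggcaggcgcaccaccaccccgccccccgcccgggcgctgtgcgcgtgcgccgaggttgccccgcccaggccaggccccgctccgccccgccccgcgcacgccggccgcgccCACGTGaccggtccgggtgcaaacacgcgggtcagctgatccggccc
CTSA: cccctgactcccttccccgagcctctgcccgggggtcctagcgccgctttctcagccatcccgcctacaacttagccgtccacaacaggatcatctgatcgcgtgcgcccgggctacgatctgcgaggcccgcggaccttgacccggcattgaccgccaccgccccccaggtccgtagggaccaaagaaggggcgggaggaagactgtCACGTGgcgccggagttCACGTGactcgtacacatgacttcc
LAMP1: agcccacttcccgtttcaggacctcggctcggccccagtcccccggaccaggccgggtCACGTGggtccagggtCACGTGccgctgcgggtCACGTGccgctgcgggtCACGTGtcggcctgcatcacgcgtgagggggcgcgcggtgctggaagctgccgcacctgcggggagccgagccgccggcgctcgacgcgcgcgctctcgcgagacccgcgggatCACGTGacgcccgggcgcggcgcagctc
CTSL: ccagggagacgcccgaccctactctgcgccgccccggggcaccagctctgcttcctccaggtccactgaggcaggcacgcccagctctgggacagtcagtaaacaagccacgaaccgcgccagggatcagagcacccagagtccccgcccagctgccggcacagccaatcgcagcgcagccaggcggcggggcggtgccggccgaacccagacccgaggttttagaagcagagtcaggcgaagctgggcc

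CACGTG reads the same on both strands, so 1 search covers both. CTSD held 1 copy, whose first base was 47 bases before the start, and CTSA held 2, at 42 and 25 bases. LAMP1 held 5 copies, at 192, 176, 159, 142 and 28 bases, and all copies in these 3 promoters were part of CACGTGA on one strand or the other. CTSL held none. CTSF held 2 copies, at 123 and 51 bases, while CTSZ and NPC1 held none. CTSB, HEXA and LAMP2 have no entry in the promoter table. Of all 35116 windows of 250 bases in the table, 6.34% held CACGTG and 3.31% held CACGTGA, and among 6322 windows of genes above background on all arrays the shares were 9.27% and 5.76%. A match of letters is a description of the sequence, and binding was not measured.

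The question of the treatment was whether the conjugate altered these genes. None of the 10 passed the test in either line, where 0% of 21448 probe sets were called (limma adjusted p = 1 for each of the 10 genes). At an unadjusted p under 0.05 there were 611 probe sets for SK-N-FI, against 557 for SK-N-AS. Both counts were below the 0.05 share of probe sets that this threshold gives where nothing changes. The medians of the 10 genes were -0.05 (SK-N-FI) and -0.14 (SK-N-AS), against medians over all probe sets of -0.00546 and -0.00467.

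CTSL had a log2 difference, treated minus control, of -0.22 in SK-N-FI (95% interval -0.72 to 0.29), and the same estimate of -0.22 in SK-N-AS (-0.68 to 0.24). Both treated SK-N-FI arrays lay below both controls, an order that 2 arrays against 2 readily give without an effect (limma unadjusted p = 0.344). In SK-N-AS the groups overlapped. Of the genes described, CTSL had the smallest p in SK-N-AS. In SK-N-FI this was CTSF, whose signal was under background on every array, so that no size is given. CTSD differed by -0.02 (-0.52 to 0.49) in SK-N-FI, while SK-N-AS gave -0.16 (-0.71 to 0.39). CTSA differed by -0.20 (-0.74 to 0.34) and -0.13 (-0.67 to 0.42), and CTSB by -0.12 (-0.68 to 0.44) and -0.06 (-0.56 to 0.44). None of these differences passed the test.

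Among the membrane proteins, LAMP1 differed by 0.06 (-0.54 to 0.67) in SK-N-FI, while SK-N-AS gave -0.19 (-0.68 to 0.30). LAMP2 differed by -0.04 (-0.53 to 0.45) and 0.24 (-0.41 to 0.89), and leaving out control array 25 took the SK-N-AS value to -0.02, leaving out treated array 28 to 0.43. NPC1 differed by 0.05 (-0.44 to 0.54) and -0.16 (-0.65 to 0.32). HEXA differed by -0.06 (-0.68 to 0.57) and 0.08 (-0.39 to 0.56). CTSZ was under background on all arrays, and no size is given for it. These intervals give the changes compatible with the data before adjustment over probe sets. They do not mark which changes 2 or 3 arrays per group could detect. On simulated data, log2 differences of 1 passed the adjusted test for 27% of 200 changed probe sets (SK-N-FI) or 0% (SK-N-AS).

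**Figure D3:**
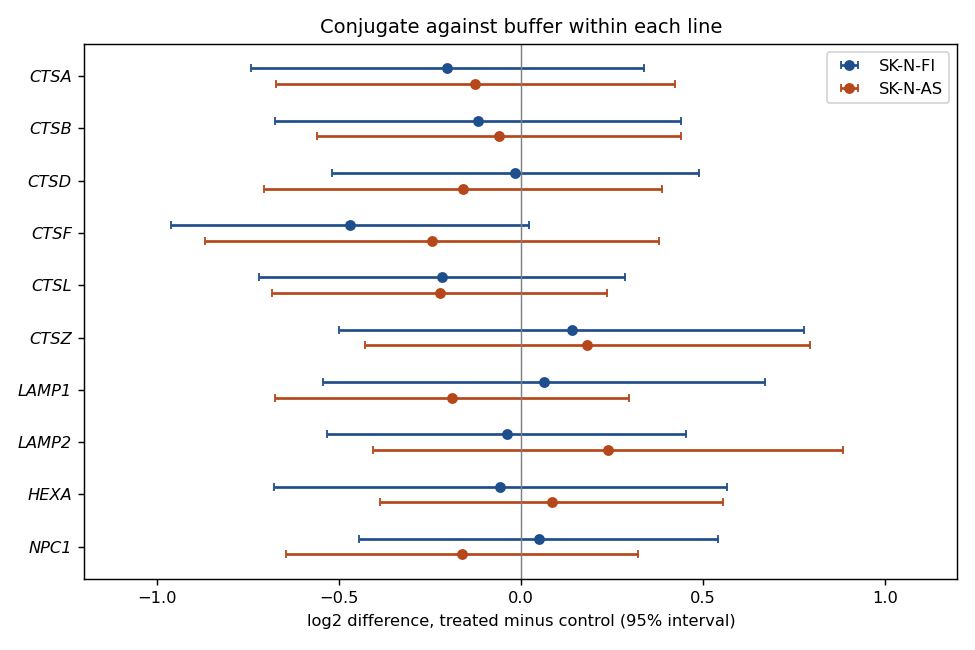
Log2 difference, treated minus control (horizontal axis), with 95% intervals from limma, for the 10 genes in SK-N-FI (blue, 2 arrays against 2) and SK-N-AS (brown, 3 against 3). All 20 intervals include 0, and CTSF and CTSZ are under background on every array.

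Effects of treatment in both lines were compared by an interaction term in a fit of all arrays. The differences of the effects, SK-N-AS minus SK-N-FI, ran from -0.25 for LAMP1 (95% interval -1.01 to 0.51) to 0.28 for LAMP2 (-0.60 to 1.16). None passed the test (limma adjusted p = 1), where 0% of 21448 probe sets were called and 457 had an unadjusted p under 0.05. That count was again below a 0.05 share of the probe sets. The same term compares the line difference in treated with that in control arrays.

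Within the SK-N-AS groups, several genes were high or low on the same array. Control array 25 was the highest of its group for 4 of the 8 genes above background and the lowest for 1, and control array 26 was the highest for 2 and the lowest for 5. Treated array 28 was the highest of its group for 5 of the 8 and the lowest for 1, LAMP2. LAMP2 lay at -0.52 and -0.37 from its group means on arrays 25 and 28, where CTSA lay at 0.25 and 0.38 and LAMP1 at 0.17 and 0.29. CTSD was also below its group mean on array 25 (-0.05), as was CTSB on array 28 (-0.02), and the other genes of the 8 were above theirs on both. Without arrays 25 and 28 the test of treatment in SK-N-AS called 0 of the 10 genes. The pooled SD within groups over the 10 arrays ran from 0.15 for CTSL to 0.33 for LAMP2 among these 8 genes.

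**Figure D4:**
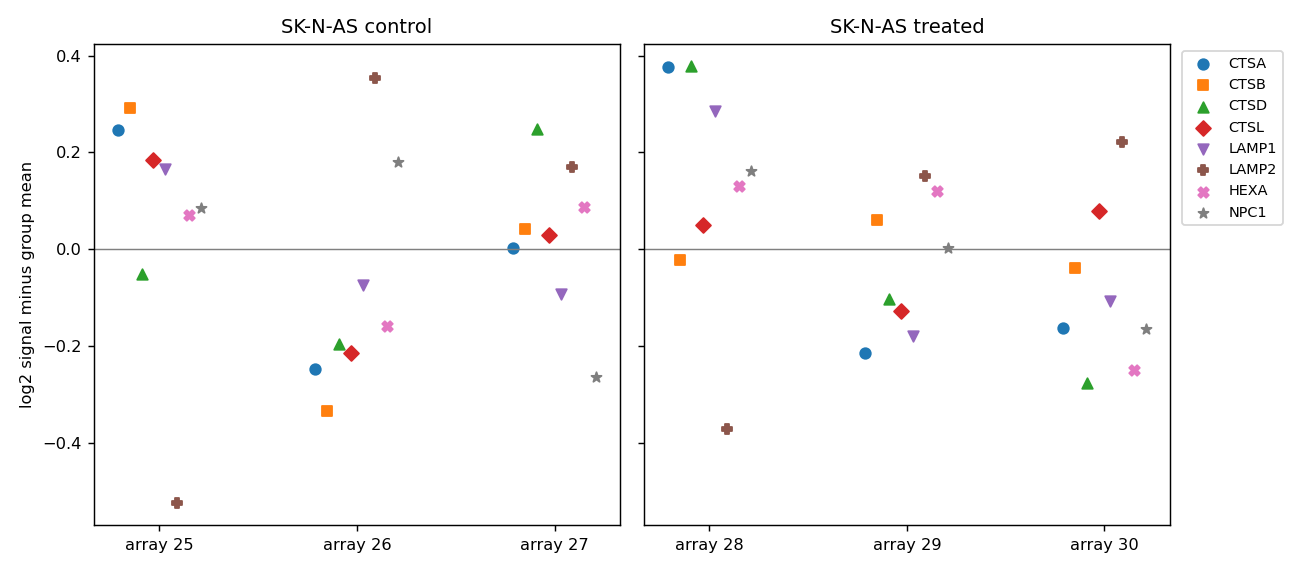
Deposited log2 signal minus the mean of its group (vertical axis) for the 8 genes above background on each SK-N-AS array, controls on the left and treated on the right. LAMP2 is the lowest point on arrays 25 and 28, on which CTSA and LAMP1 lie above their group means.

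Other genes of the lysosomal pathway were described from lists by function, with 124 of 136 genes measured. In control arrays on the quantile scale, SK-N-AS was called higher for 59 of the 124 and SK-N-FI for 12, with a median difference of 0.61. Of the 72 above background throughout, SK-N-AS was called higher for 32 (44.4%) and SK-N-FI for 4, beside the 31.9% and 22.7% given above. On the deposited scale SK-N-AS was called higher for 20 of the 124 and SK-N-FI for 58, with a median of -0.51. The counts of each list stand beside the shares over all probe sets, which were 23.9% and 22.8% on the quantile scale and 11.5% and 47.8% as deposited. These lists too were chosen with earlier results known. None of the 124 passed the test for treatment in either line. The smallest unadjusted p-values with higher treated means belonged to OSTM1 (0.69) and CTSO in SK-N-FI, and to ABCA2 and GM2A in SK-N-AS. Those with lower treated means belonged to ULK1 (-0.41) and SMPD1 (-0.57) in SK-N-FI, and to TPCN2 and VPS11 (-0.52) in SK-N-AS (limma adjusted p = 1 for each). CTSO, ABCA2, GM2A and TPCN2 were under background on every array of the line concerned, so no size is given, and SMPD1 was above it on 1 of 4 SK-N-FI arrays.

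Of the 9 other cathepsins measured, 7 were called higher in SK-N-AS controls and 2 in SK-N-FI controls on the quantile scale, against 6 and 2 as deposited. Among the 7, CTSG, CTSH and CTSK were under background on every array of both lines, and CTSE was above it on 2 SK-N-AS arrays only. CTSS, CTSO and CTSC were above background on every SK-N-AS array. CTSS, encoding cathepsin S, a protease of antigen presentation, lay at 11.59 to 11.84 in SK-N-AS and at 4.15 to 5.11 in SK-N-FI, where it was under background on all arrays. It was at least 44.0-fold higher in SK-N-AS controls on the quantile scale and at least 19.1-fold on the deposited scale (limma adjusted p = 3.80e-10 and 6.86e-10). Such a bound sets the mean of the brighter group against the higher of the lowest signal above background and the gene's own signal in the dimmer group. CTSO, encoding cathepsin O, lay at 9.37 to 10.55 and at 3.07 to 4.17, at least 11.9-fold and 4.60-fold higher in SK-N-AS. CTSC, encoding the dipeptidyl peptidase that activates granule proteases and named after its values were seen, was at least 20.5-fold and 8.35-fold higher.

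CTSV, the closest relative of CTSL, ran the other way. It lay at 11.66 to 12.15 on SK-N-FI arrays and at 5.24 to 6.10 in SK-N-AS, under background there, and was at least 11.7-fold higher in SK-N-FI controls on the quantile scale and at least 32.9-fold on the deposited scale (limma adjusted p = 1.48e-07 and 2.80e-09). Because CTSL and CTSV are similar in sequence and probe sequences were not used here, signal shared between their probe sets was not checked. CTSW, also called higher in SK-N-FI, was under background on all arrays.

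Among inhibitors of cysteine cathepsins, CSTB (1.39) and CST3 (1.72) were called higher in SK-N-AS controls on the quantile scale and differed by 0.04 and 0.10 on the deposited scale (limma adjusted p = 0.872 and 0.796). CST6 was called higher in SK-N-FI and CST7 was not called, and both were under background on all arrays. Of 24 other hydrolases measured, SK-N-AS was called higher for 13 and SK-N-FI for 2 on the quantile scale, against 2 and 11 as deposited. They included MANBA, a mannosidase (2.06; 0.44 on the deposited scale), and ARSB, a sulfatase (-1.17; -2.86). FUCA1, a fucosidase called higher in SK-N-AS, was above background on 1 of 6 SK-N-AS arrays and on none of SK-N-FI. No fold is given for it. IDUA, called higher in SK-N-FI, was under background throughout. Of the lipid activators, PSAP, the precursor of the saposins, was higher in SK-N-AS on both scales (1.67 and 0.97, limma adjusted p = 5.94e-05 and 0.00222), and GM2A was under background.

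Of 22 other membrane proteins, SK-N-AS was called higher for 9 and SK-N-FI for 2 on the quantile scale, against 5 and 11 as deposited. TMEM192 (7.98-fold; log2 1.58 on the deposited scale, above background on 2 of 4 SK-N-FI arrays) and LAPTM4B (log2 2.35; 0.81) were higher in SK-N-AS on both scales. The 2 higher in SK-N-FI were TPCN2, an endolysosomal channel above background on 2 of the 10 arrays, and SIDT2, under background on the SK-N-AS controls (at least 1.39-fold higher in SK-N-FI, and at least 4.07-fold on the deposited scale). Of 16 V-ATPase subunits, which pump protons into lysosomes, SK-N-AS was called higher for 5 and SK-N-FI for 2 on the quantile scale, against 2 and 10 as deposited. ATP6V0E1 (2.35; 1.88) was higher in SK-N-AS and ATP6V0A2 (-1.55; -3.11) and ATP6V1B2 (-1.09; -2.17) were higher in SK-N-FI on both scales, while ATP6AP1 was at 2.01 and 0.42. Of the 16 subunits, 15 were above background throughout. Among all probe sets above background throughout, SK-N-AS was called higher for 31.9% and SK-N-FI for 22.7% on the quantile scale. As deposited these shares were 7.28% and 70.7%.

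In lysosomal sorting SK-N-AS was called higher for 6 of 11 genes and SK-N-FI for 0 on the quantile scale, and as deposited the counts were 0 and 6. IGF2R, the large mannose-6-phosphate receptor, was at 1.25 and at -0.40 on the deposited scale, and NAGPA was under background. M6PR (-0.26) and VPS35 (-0.22) were not called on the quantile scale and were higher in SK-N-FI on the deposited scale (-0.79 and -1.71). Of 17 regulators SK-N-AS was called higher for 9 and SK-N-FI for 1 on the quantile scale, against 3 and 5 as deposited. RRAGD, a Rag GTPase of the nutrient sensing complex on lysosomes, was at least 10.3-fold higher in SK-N-AS on the quantile scale and at least 3.96-fold on the deposited scale, and LAMTOR2 was at 3.20 and 1.69. RRAGA was not called (-0.49) and was higher in SK-N-FI on the deposited scale (-2.17), and ZKSCAN3, called higher in SK-N-FI, was under background. Of the TFEB family, named for their role in transcription of lysosomal genes, TFEB, MITF and TFEC were under background on all 10 arrays. TFE3 was above it on 4 of 4 SK-N-FI and 5 of 6 SK-N-AS arrays, and was called higher in SK-N-AS controls on the quantile scale (0.95, limma adjusted p = 0.0175) but not as deposited (-0.51, adjusted p = 0.155).

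Of 18 autophagy genes SK-N-AS was called higher for 7 and SK-N-FI for 1 on the quantile scale, against 1 and 10 as deposited. SQSTM1, encoding the cargo receptor p62, was higher in SK-N-AS by 5.72 on the quantile and 4.86 on the deposited scale (limma adjusted p = 3.28e-09 and 3.52e-09), with group means of 16.28 and 11.42 in the controls as deposited. MAP1LC3B, an autophagosome marker, was higher in SK-N-FI (-0.56 and -1.99), WIPI1 was at 1.43 and -0.23, and GABARAP at -0.18 and -0.86.

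**Figure D5:**
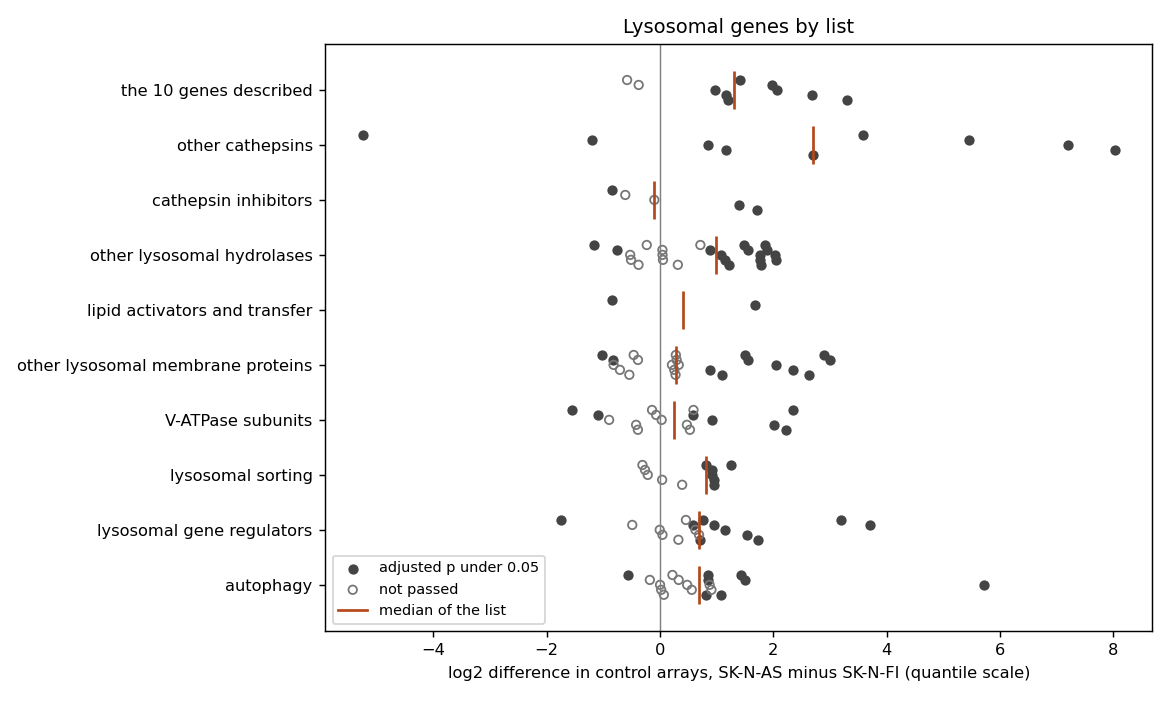
Log2 difference between the lines in control arrays, SK-N-AS minus SK-N-FI on the quantile scale (horizontal axis), for the 10 genes described and for the other lysosomal lists, with filled points for an adjusted p under 0.05 and a line at each list's median. CTSS, CTSO and CTSC lie at the right end and CTSV at the left end of the other cathepsins.

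Markers of other cells also differed between the lines. Of 6 macrophage markers, 5 were under background on every control array of SK-N-AS and all 6 in SK-N-FI, and PTPRC exceeded background on 5 of 6 SK-N-AS arrays. That list had a mean log2 signal of 4.76 to 5.05 on SK-N-FI control arrays, against 5.50 to 5.76 on those of SK-N-AS. Of 5 fibroblast markers, all 5 were above background on every SK-N-AS array and 2 on every SK-N-FI control array, with a mean of 10.55 to 11.19 in SK-N-AS controls and 7.80 to 8.34 in SK-N-FI controls as deposited. One of them, THY1, ran the other way and was higher in SK-N-FI on both scales (-1.73 and -3.20), and PDGFRB turned from 0.85 on the quantile scale to -0.64 as deposited. Of 8 mesenchymal neuroblastoma markers, 5 were above background on every SK-N-AS control array and 3 on every SK-N-FI control array, with deposited means of 8.33 to 8.79 and 7.18 to 7.33. In controls SK-N-AS was called higher for 6 of them and SK-N-FI for 0 on the quantile scale, against 4 and 1 as deposited. The 1 was SNAI2, at -1.62 (limma adjusted p = 0.000176) and at -0.15 on the quantile scale. AXL was under background on all arrays. The part of these markers' cell states in the lysosomal differences was not tested.

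Genes outside the lists whose values ran most like the mean of the 10 genes were CBS (Pearson r = 0.999), AARS1 (0.999) and FTL (0.998), among 5025 named genes above background on all arrays. These correlations were taken over 10 arrays on the quantile scale as a description, and the points share their line and their normalization. FTL, the ferritin light chain, had deposited group means of 12.16 in SK-N-FI controls and 16.97 in SK-N-AS controls.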

How the data were processed

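The authors deposited 1 log2 signal for each probe set and array. RMA and Transcriptome Analysis Console 4.0.1.36 are named in the submitters' processing notes, with no role given, and RNA was extracted with Trizol and labelled with biotin, per the labels' protocols. RMA commonly equalises arrays, so a change shared by most genes would be removed. The genome build and further settings are not given in the sources used here. The table held 24351 probe sets, of which 2903 were controls and 21448 were tested. The platform annotation named 17709, all matched in RefSeq, and where a symbol had several probe sets (20 symbols) the brightest was used.

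Lines were fitted separately for treatment, and all arrays in 4 groups for the interaction and the line comparison, with limma 3.58.1 in R 4.3.3 and Benjamini-Hochberg adjustment over 21448 probe sets at 0.05. Groups came from sample titles. All 10 genes are named. In other lists, the genes with the smallest p in each direction are named, 2 per direction for the line and, over all lists, per line for treatment. The genes and lists were chosen with earlier results of these data known. On simulated data with 200 changed probe sets, 99.5% of log2 differences of 2 and 27.0% of 1 were recovered for treatment in SK-N-FI, and 97.5% and 0% in SK-N-AS. For the difference of treatment effects between the lines the shares were 72% and 0%. Noise was drawn with the variances that limma estimated from these data, so the shares hold for that setting only. The line comparison was tested in the same way, but with far fewer changed probe sets than it called, so its recovery at small differences is not comparable. Alternatives covered scaling, dim probe sets, eBayes settings, array weights, thresholds, blocks and left-out arrays. No arrays held identical values.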

Additional observations from a re-analysis of the deposited data

How the results depend on the processing

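CTSA, CTSD and CTSL kept their direction and their call between the lines in all 22 alternatives, in control and in treated arrays, with an adjusted p of at most 0.00819. Counts of the 10 genes moved with the scale: in control arrays, from 8 called to 4 as deposited (3 higher in SK-N-AS, 1 in SK-N-FI) and 5 with arrays centred on the negative control median (4 and 1), and in treated arrays from 8 to 4 under each of these (3 and 1). Centring on the negative controls gave 2984 probe sets higher in SK-N-AS and 9364 in SK-N-FI in control arrays, and 2731 and 9651 in treated arrays. With arrays centred on their median, 6 and 7 were called, all higher in SK-N-AS. Restricting the fit to probe sets above background on at least 2 arrays, which leaves fewer to test, moved the probe sets called from 10021 to 6451 in control arrays and from 9769 to 6304 in treated arrays.

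On the deposited scale CTSB (-0.15), LAMP2 (-0.38), HEXA (-0.26) and NPC1 (-0.25) reversed in control arrays, and at -0.089, -0.10, -0.11 and -0.47 in treated arrays. With negative control centring they were -0.0073, -0.24, -0.11 and -0.11 in control arrays and -0.0025, -0.016, -0.028 and -0.38 in treated arrays. CTSZ reversed with median centring (0.23 and 0.26). The cause was not tested.

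Leaving out single arrays left 8 to 9 of the 10 genes called in control arrays (8 higher in SK-N-AS, 0 to 1 in SK-N-FI, CTSF without treated array 28) and 8 in treated arrays. No treatment effect was called in any alternative. The signs of small treatment effects turned when arrays were left out, for SK-N-FI (CTSD -0.13 to 0.0953, CTSZ -0.15 to 0.42, LAMP1 -0.17 to 0.30, LAMP2 -0.0989 to 0.0206, HEXA -0.37 to 0.26, NPC1 -0.0256 to 0.12, CTSB -0.35 to 0.11), SK-N-AS (CTSB -0.23 to 0.087, LAMP2 -0.0221 to 0.43, CTSF -0.44 to 0.0489) and the difference of effects (CTSA -0.11 to 0.24, CTSL -0.11 to 0.0895, CTSZ -0.24 to 0.33, CTSB -0.17 to 0.29, HEXA -0.17 to 0.45). Without arrays 25 and 28, CTSB (0.098) and CTSF (0.0075) in SK-N-AS and the difference for CTSL (0.061) reversed. Quantile normalization turned CTSD in SK-N-FI to 0.0082 and the CTSL difference to 0.050, and array weights the CTSZ difference to -0.014; the cause was not tested.

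The replicate block on the SK-N-FI numbers gave 0 called genes for treatment and 8 for each line comparison, as without it. Deviations of same-numbered SK-N-FI arrays correlated at -0.171, and a crossed block, chosen after seeing the data, gave 0 and 8 as well. The SK-N-AS titles share no numbers, so they entered no block.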
